A study of Homo sapiens with 33 samples.

Results

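The 10 genes described here encode the core of the transcription factor AP-1 and some of its companions among the immediate early genes. They are FOS, FOSB, FOSL1, FOSL2, JUN, JUNB, JUND, EGR1, IER2 and IER3, found by name among the 58302 genes of the expression matrix. AP-1 is a dimer of a FOS and a JUN protein, or of JUN proteins alone, that binds DNA through a basic leucine zipper. FOS, FOSB, JUN, JUNB, EGR1, IER2 and IER3 are classical immediate early genes, transcribed within minutes of serum or growth factor addition, without new protein synthesis, and shut off again soon after. FOSL1 (FRA-1) and FOSL2 (FRA-2) accumulate later and persist in growing and transformed cells, whereas JUND is made at a steady level in most cells. EGR1 is a zinc finger factor, and IER2 and IER3 are small proteins induced by growth factors and stress.

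The libraries came from 6 established human cell lines. H2052, H2452, H28 and MSTO-211H are malignant pleural mesothelioma (MPM) lines sensitive to palbociclib, an inhibitor of the cyclin-dependent kinases CDK4 and CDK6. The resistant lines are MPP89, an MPM line whose RB1 is mutated, and MeT-5A, a mesothelial line that SV40 immortalized. Control cells received 0.1% DMSO, treated cells received 1 µM palbociclib for 9 or 10 days, and washout cells grew for 48 h in fresh medium after 10 days of palbociclib. There were 14 DMSO, 14 palbociclib, 4 washout and 1 untreated library, the last from MeT-5A. Each treated library had a DMSO library of the same experiment, which gave 11 pairs in sensitive lines, 7 of 9 days and 4 of 10 days, and 3 pairs in resistant lines. Each library is 1 culture of an established line.

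Levels are in CP20M, the counts of a gene per 20000000 counted reads of its library, which the authors rounded up to whole numbers. A gene was tested if it reached 100 CP20M in at least 1 of the 33 libraries, which 17803 genes did. Among the members, 8 of 10 did. FOS peaked at 68 CP20M and FOSB at 59, so neither entered the fits across genes. The skipped whole numbers gave a depth between 12770000 and 19830000 reads for 23 libraries, in which a read was worth at most 1.57 CP20M, so the lowest FOS and FOSB values rest on a few reads. Of 8 mesothelial markers, 2 to 5 were at 100 CP20M or more in every library of a line, with MSTO-211H lowest, at a sum of 778 to 1818 CP20M. The T cell marker CD3E was at 0 in all 33 libraries, and PTPRC, EPCAM and SFTPC never reached 100 CP20M. The endothelial marker PECAM1 reached 120 CP20M in 1 library, and CD68, a macrophage marker, was at 123 to 1844 CP20M (median 579) in all 33.

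The upstream stretches of 4 members are shown because these genes carry the contrasts below: JUN, with the clearest rise, IER2, with the clearest fall, EGR1, the most variable member, and FOS, close to absent. Each runs from 130 to 31 bases before the start of the gene in RefSeq (GRCh38.p14), 5′ to 3′ on the strand of the gene. Capitals mark matches, on either strand, to the CArG box that serum response factor binds, to TGACGT, a core of the cAMP response element TGACGTCA, or to TGACATCA, a site of the JUN promoter. A match is a description of the sequence.
EGR1, chr5:138465349-138465448, plus strand: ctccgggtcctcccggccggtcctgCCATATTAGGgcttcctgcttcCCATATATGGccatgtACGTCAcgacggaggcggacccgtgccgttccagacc
FOS, chr14:75278698-75278797, plus strand: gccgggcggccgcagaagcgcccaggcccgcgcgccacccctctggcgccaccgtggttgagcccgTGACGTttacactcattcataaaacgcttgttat
JUN, chr1:58784078-58784177, minus strand: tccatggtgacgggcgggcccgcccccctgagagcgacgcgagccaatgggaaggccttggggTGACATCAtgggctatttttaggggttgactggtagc
IER2, chr19:13150281-13150380, plus strand: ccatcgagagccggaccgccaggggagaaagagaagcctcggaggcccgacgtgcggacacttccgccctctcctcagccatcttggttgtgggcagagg
Over the 250 bases before the start, EGR1 held 2 CArG boxes, at -105 and -83, a motif present in 1.16% of the 35116 promoters of the table. TGACGT was found upstream of FOS, FOSB, FOSL2, JUND and EGR1, against 7.10% of all promoters. TGACATCA stood at -67 of JUN and in 2.37% of all promoters, and the complete TGACGTCA was found upstream of JUND alone among the 8 members in the table, against 1.65% of all promoters. The AP-1 site TGAGTCA, present in 4.20% of all promoters, was not in these windows of the 8 members, and JUNB and IER2 held none of the motifs searched.

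Most members differed in level among the 6 lines, as did nearly all tested genes. In DMSO, 7 of the 8 tested members differed among the 6 lines (limma F test, FDR under 0.05), beside 95.6% of all tested genes. EGR1 ranged most, from a mean of 11 CP20M in H2052 to 631 ± 245 (SD, n = 3) in H28, a 29.3-fold difference of the line means on the CP20M + 10 scale. FOSL1 ranged 24.1-fold, from 149 CP20M in the DMSO library of MeT-5A to 4119 in H2052, where its 2 libraries stood at 5658 and 2580. IER2 ranged least, 1.36-fold between H2452 and MPP89, and was the member that did not pass (adjusted p = 0.0973). Among neighbours in the order of the lines, the libraries overlapped in 2 or 3 of 5 neighbouring pairs for every member, so the full order is not resolved for any of them.

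**Figure D1:**
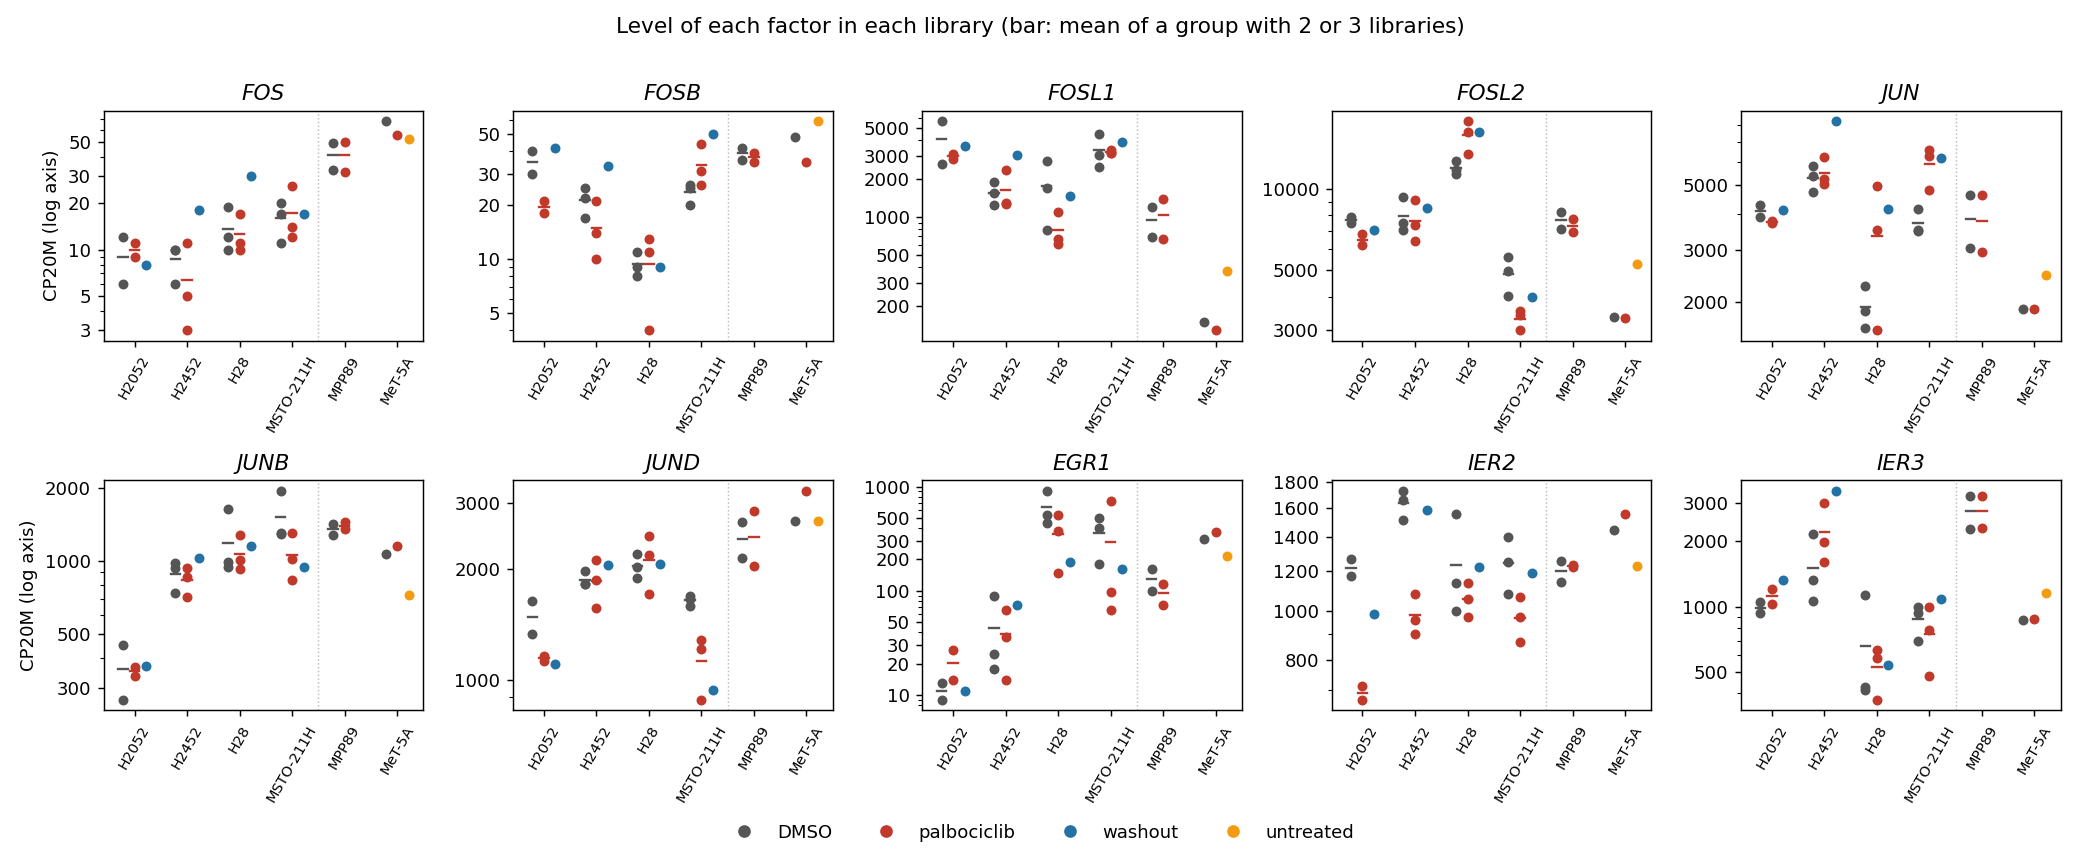
Level of each of the 10 genes in each of the 33 libraries, in CP20M on a log axis, by cell line on the x axis, with the resistant lines right of the dotted line. Points are libraries coloured by treatment and bars are means of groups with 2 or 3 libraries. EGR1 and FOSL1 spread most between lines, and IER2 stands lower with palbociclib than with DMSO in every library pair of H2052, H2452 and MSTO-211H.

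The FOS family of these cells was almost entirely FOSL1 and FOSL2. Divided by exon length, FOS made up a median of 0.174% of the family over the 33 libraries and at most 3.70%, and FOSB a median of 0.202%, both highest in MeT-5A. The division between FOSL1 and FOSL2 depended on the line. FOSL1 made up 64.5% of the family per kb in DMSO-treated H2052 and 71.1% in MSTO-211H (means of n = 2 and n = 3), but 33.9% in H28, 30.9% in MPP89 and 13.7% in the DMSO library of MeT-5A. In H28 its share ran from 18.9% to 47.0% with DMSO and from 13.5% to 18.7% with palbociclib, and the groups just failed to overlap. In MSTO-211H, FOSL1 ran from 62.2% to 77.2% with DMSO and from 77.6% to 79.4% with palbociclib. Within the JUN family in DMSO, JUN led in H2052, at 53.9% per kb, in H2452, at 50.1%, and in MSTO-211H, at 38.1%. JUND led in MeT-5A, at 55.7%, in H28, at 47.6%, and in MPP89, at 41.0%. With palbociclib the mean share of JUN went from 38.1% to 58.3% in MSTO-211H, where 33.3% to 42.2% in DMSO did not overlap with 49.0% to 66.4%, and from 23.7% to 33.9% in H28, where the groups overlapped. These shares are descriptions of summed transcripts and carry no test.

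**Figure D2:**
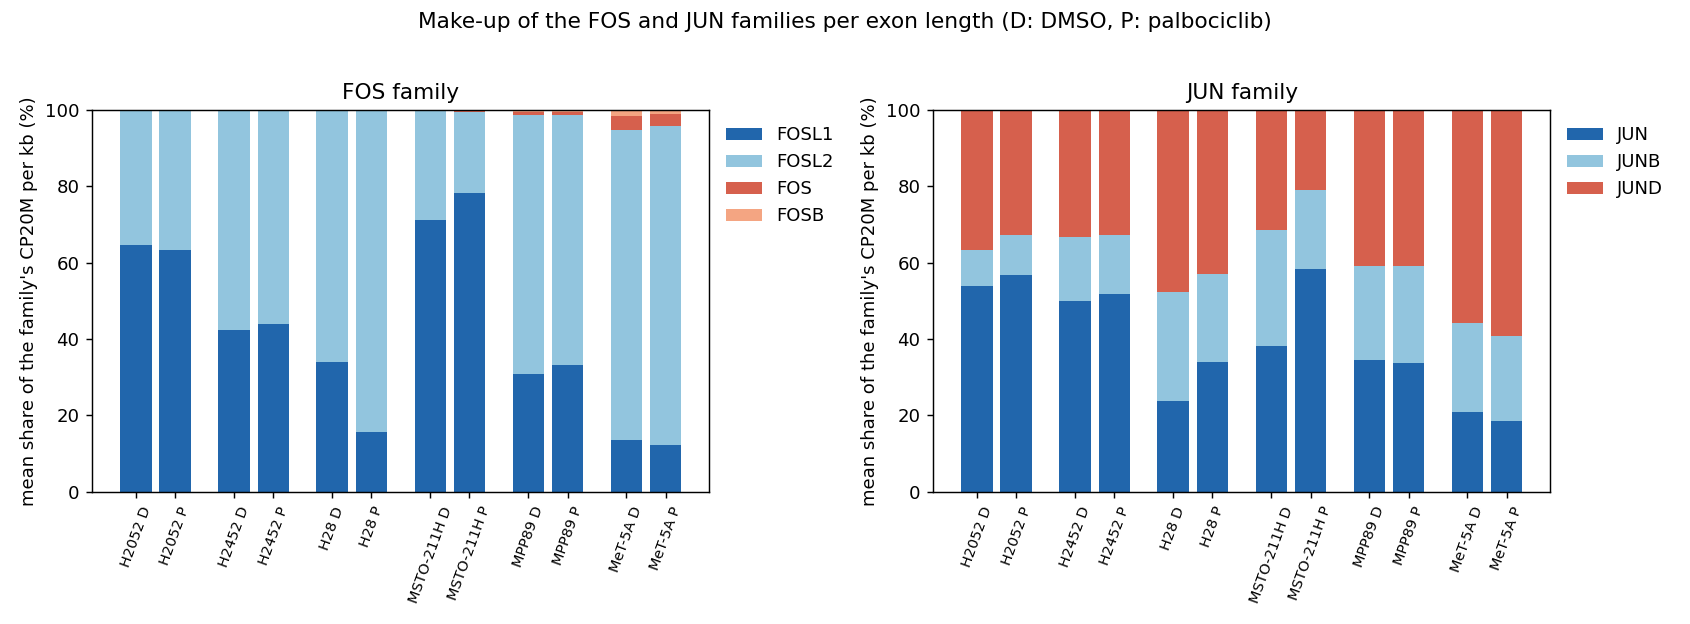
Make-up of the FOS family (left) and JUN family (right) in each line with DMSO (D) or palbociclib (P), as the mean share, in percent, of the summed CP20M per kb of exon. FOSL1 and FOSL2 fill nearly all of the FOS family, and the share of JUN in MSTO-211H is 38.1% with DMSO and 58.3% with palbociclib.

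Over the 11 pairs of sensitive lines, no member passed the call of a fold change over 1.5 with an FDR under 0.05 (limma), a call that 15.0% of the 17803 genes received. By FDR alone, a rule added after the data were seen, IER2 fell and JUN rose, 2 of 8 tested members beside 48.3% of all genes. The other 6 had adjusted p-values from 0.0861 for JUND to 0.775 for IER3. The median log2 fold change of all tested genes was -0.11 with the deposited scaling, and the other scalings moved it by 0.17 (median of ratios) or 0.11 (upper quartile). Of the 2663 genes called, 994 were higher with palbociclib, against 1759 of 2679 with median-of-ratios and 1416 of 2501 with upper-quartile scaling. Since these are bulk cultures, fewer cells with a transcript and less of it per cell cannot be told apart.

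IER2 (chr19:13150411-13154911, plus strand) had the clearest fall. In H2052 it was at 1266 and 1172 CP20M with DMSO and at 712 and 668 with palbociclib. In H2452 it was at 1513, 1727 and 1659 with DMSO and at 903, 1082 and 959 with palbociclib. The groups did not overlap in either line, and IER2 was called there, with log2 fold changes of -0.81 ± 0.08 (SE, adjusted p = 0.0376) and -0.73 ± 0.05 (SE, adjusted p = 0.0124). With median-of-ratios scaling the values were -0.50 (adjusted p = 0.0508) and -0.53 (adjusted p = 0.0118) and with upper-quartile scaling -0.65 (adjusted p = 0.112) and -0.48 (adjusted p = 0.0157), and neither line passed the call. In H2452 the call was also lost without replicate 1 (adjusted p = 0.125) or replicate 3 (adjusted p = 0.0889). In MSTO-211H the values were 1252, 1080 and 1398 with DMSO against 868, 1064 and 972 with palbociclib, lower in all 3 pairs but not past the test (log2 fold change -0.35, adjusted p = 0.143). H28 had 999, 1137 and 1557 with DMSO and 1056, 1135 and 976 with palbociclib, and there IER2 was clearly lower only in the 10-day pair. Over the sensitive lines IER2 was lower in 10 of 11 pairs, 1.41-fold on average (log2 fold change -0.50 ± 0.10, SE, adjusted p = 0.00102). The mean over the 4 pairs of 10 days was -0.69 ± 0.13 (SD) and over the 7 pairs of 9 days -0.39 ± 0.39 (SD), and the adjusted p was 0.0139 and 0.0538. With median-of-ratios scaling the fall was -0.30 (adjusted p = 0.00738).

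A lncRNA gene on the other strand, AC011446.2, shares 946 exonic bases with IER2 in GENCODE 44. It went from a median of 875 to 600 CP20M over the sensitive lines (log2 fold change -0.52 ± 0.10, SE, adjusted p = 0.00069). Its deviations from the line means followed those of IER2 with r = 0.94 over 33 libraries, the highest r of any tested gene with IER2. The libraries kept the strand, but the strand setting of the counting is not given in the sources used here, so the reads of this pair cannot be told apart.

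JUN (chr1:58776845-58784048, minus strand), the partner that pairs with FOS proteins in most AP-1 dimers, rose in MSTO-211H. It was at 3529, 3495 and 4157 CP20M with DMSO and at 6566, 4804 and 6301 with palbociclib, with no overlap (log2 fold change 0.65 ± 0.12, SE, adjusted p = 0.0421, called). Leaving out replicate 1, 2 or 3 ended the call (adjusted p = 0.0915, 0.107 and 0.246), with log2 fold changes from 0.53 to 0.75. With 2 pairs left no gene at all was called in this line, so the loss is not particular to JUN. H28 had 1865, 1633 and 2276 with DMSO and 3526, 1605 and 4971 with palbociclib, higher in 2 of 3 pairs (log2 fold change 0.67 ± 0.25, SE, adjusted p = 0.132). H2452 had 5377, 4738 and 5791 against 5033, 5228 and 6227, and H2052 4267 and 3889 against 3767 and 3710, differences of 0.05 and -0.12 on the log2 scale that did not pass. With median-of-ratios scaling they were 0.25 and 0.19 and with upper-quartile scaling 0.31 and 0.04, so the direction in H2052 turned. Over the 11 pairs JUN was higher in 7 (log2 fold change 0.35 ± 0.13, SE, adjusted p = 0.0335). Its adjusted p ran from 0.00346 to 0.215 over 26 alternatives and was under 0.05 in 14 of them, with no filter on low genes at 0.0684. Without H28 or without MSTO-211H the change was 0.23 (adjusted p = 0.142) and 0.24 (adjusted p = 0.215), so the pooled value rests on these lines.

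JUNB (chr19:12791486-12793315, plus strand), which can take the place of JUN in the dimer and often opposes it, and JUND (chr19:18279694-18281622, minus strand) moved the other way in MSTO-211H. JUNB was at 1290, 1941 and 1302 CP20M with DMSO and at 839, 1300 and 1023 with palbociclib. It was lower in all 3 pairs and the groups overlapped (log2 fold change -0.51 ± 0.09, SE, adjusted p = 0.0421, under the fold threshold). JUND went from 1590, 1687 and 1655 to 885, 1287 and 1216 with no overlap (log2 fold change -0.56 ± 0.12, SE, adjusted p = 0.0545). Over the 4 lines JUNB was lower in 9 of 11 pairs and JUND in 8 of 11, with log2 fold changes of -0.19 (adjusted p = 0.0892) and -0.21 (adjusted p = 0.0861) that did not pass. With median-of-ratios scaling JUNB was at 0.00 (7.03e-05) and JUND at -0.02 over the 4 lines. In MSTO-211H JUNB did not pass with either scaling (adjusted p = 0.118 and 0.103). JUNB shares 259 exonic bases with HOOK2 on the other strand, whose r with JUNB was 0.74 over the 33 libraries. As for IER2, reads in the shared bases cannot be told apart.

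FOSL2 (chr2:28392448-28417317, plus strand) was the member whose response differed among the sensitive lines (F test, adjusted p = 0.00215), beside 37.1% of all genes. In H28 it was at 11363, 12788 and 11746 CP20M with DMSO and at 13499, 16255 and 17904 with palbociclib, higher in all 3 pairs (log2 fold change 0.40 ± 0.11, SE, adjusted p = 0.0716). In MSTO-211H it was at 5604, 4023 and 4961 with DMSO and at 3418, 2998 and 3529 with palbociclib, lower in all 3 pairs (log2 fold change -0.54 ± 0.09, SE, adjusted p = 0.0408). In neither line did the groups overlap. H2052 and H2452 were lower in all of their pairs, by -0.24 and -0.07 on average, which did not pass. Both directions depended on the scaling, with values of 0.07 in H2052 and 0.13 in H2452 for median of ratios and of -0.08 and 0.19 for upper quartile. In MSTO-211H FOSL2 did not pass under either (-0.37, adjusted p = 0.0684, and -0.50, adjusted p = 0.0919).

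FOSL1 (chr11:65892049-65900573, minus strand), the FOS member tied to invasion in many carcinoma lines, was lower with palbociclib in all 3 pairs of H28. It was at 1676, 785 and 2753 CP20M with DMSO and at 608, 669 and 1084 with palbociclib (2.01-fold lower on average, SE 0.28 on the log2 scale, adjusted p = 0.0763), and the groups overlapped. In H2052 its 2 DMSO libraries, at 5658 and 2580, lay on either side of the treated ones, at 2854 and 3111. H2452 had 1544, 1229 and 1876 against 1281, 1265 and 2341, and MSTO-211H 2459, 3078 and 4476 against 3181, 3159 and 3357. Over the 11 pairs FOSL1 was lower in 6 and higher in 5 (log2 fold change -0.33 ± 0.17, SE, adjusted p = 0.127).

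FOS (chr14:75278826-75282230, plus strand) stayed between 3 and 30 CP20M in every sensitive library. It had a median of 11 CP20M with DMSO (6 to 20, n = 11) and 11 with palbociclib (3 to 26, n = 11). The resistant lines were higher, at 32 to 50 CP20M in MPP89 and 52 to 68 in MeT-5A. FOSB (chr19:45467995-45475179, plus strand) had a median of 22 CP20M with DMSO (8 to 40) and 18 with palbociclib (4 to 44). It was lower in both pairs of H2052, 40 and 30 against 21 and 18, and in all 3 pairs of H2452, 17, 22 and 25 against 10, 14 and 21. It was higher in all 3 pairs of MSTO-211H, 20, 26 and 25 against 31, 44 and 26. Over the 11 pairs neither moved beyond the spread (exact sign-flip permutation test, 2-sided, p = 0.717 for FOS and p = 0.391 for FOSB, adjusted p = 0.717 for both). FOSB lies inside a long form of ERCC1 on the other strand, with 0 exonic bases shared in GENCODE 44. ERCC1 fell over the sensitive lines (log2 fold change -0.49, adjusted p = 8.19e-05), and its r with FOSB was 0.05.

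EGR1 (chr5:138465479-138469303, plus strand) was dominated by the spread between libraries of the same condition. In MSTO-211H it was at 503, 404 and 180 CP20M with DMSO and at 66, 721 and 97 with palbociclib. In H28 it was at 449, 533 and 910 with DMSO and at 376, 533 and 148 with palbociclib. H2052 had 9 and 13 against 27 and 14, and H2452 18, 89 and 25 against 14, 66 and 36. Over the 11 pairs the log2 fold change was -0.43 with a 95% interval from -1.12 to 0.26 (adjusted p = 0.281). Within lines in DMSO its SD was 0.69 on the log2 scale, against 0.13 for JUND and 0.20 for IER2.

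IER3 (chr6:30743199-30744548, minus strand), a survival and stress gene under NF-κB and growth factor control, was higher in all 3 pairs of H2452. It was at 1323, 1061 and 2155 CP20M with DMSO and at 1993, 1604 and 3006 with palbociclib. The groups overlapped because replicate 3 was higher in both conditions, while within pairs the change was even (log2 fold change 0.55 ± 0.05, SE, adjusted p = 0.0139, just under the fold threshold, and called at 0.75 with median-of-ratios and 0.81 with upper-quartile scaling). Without the pairing it did not pass (adjusted p = 0.293). H2052 had 938 and 1048 against 1031 and 1205, higher in both pairs (log2 fold change 0.17, limma, adjusted p = 0.196). H28 had 415, 427 and 1134 against 373, 630 and 583, and MSTO-211H 699, 936 and 1002 against 994, 480 and 785, each with pairs in both directions. IER3 shares 440 exonic bases with AL662797.2 (IER3-AS1) on the other strand, whose r with IER3 was 0.97 over the 33 libraries. As for IER2, reads in the shared bases cannot be told apart.

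**Figure D3:**
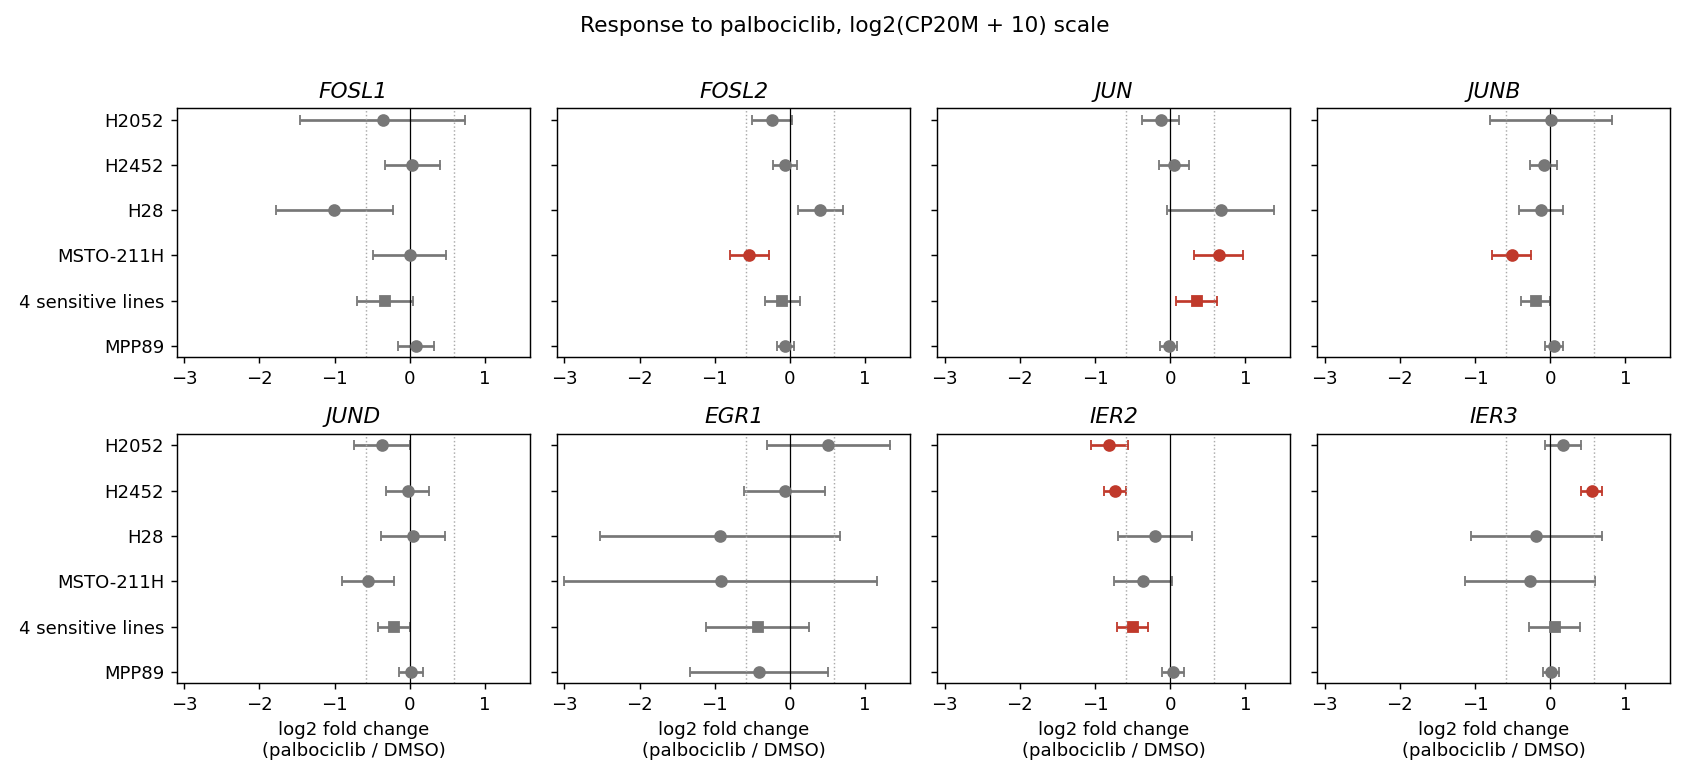
Log2 fold change of palbociclib over DMSO for the 8 tested members, with 95% intervals from limma, in each line with 2 or 3 pairs and over the 11 pairs of the 4 sensitive lines (squares). Red marks an adjusted p under 0.05 and dotted lines mark a fold of 1.5. IER2 lies left of 0 in the 4 sensitive lines and at 0.04 in MPP89, and FOSL2 lies on opposite sides of 0 in H28 and MSTO-211H.

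Taken by line, the count of called members stood near the share of all genes called. H2052 had 1 of 8 (IER2), beside 17.6% of all genes, and by FDR alone 1, beside 20.7%. H2452 had 1 (IER2), beside 16.8%, and by FDR alone 2 (IER2 and IER3), beside 32.5%. H28 had 0, beside 13.2%, and by FDR alone 0, beside 19.7%. There 2 of the 8 members were at an unadjusted p under 0.05 (limma), beside 7417 of all 17803 genes. MSTO-211H had 1 (JUN), beside 13.8%, and by FDR alone 3 (FOSL2, JUN and JUNB), beside 17.1%.

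The resistant lines gave no called member. In MPP89 the log2 fold changes of the 8 members lay between -0.41 for EGR1 and 0.08 for FOSL1, and no gene at all was called (0% of 17803, limma, with 918 genes and no member at an unadjusted p under 0.05). Over the 3 resistant pairs no gene was called either (0%, with 1258 at an unadjusted p under 0.05). IER2 was at 1253 and 1143 CP20M with DMSO and at 1232 and 1222 with palbociclib in MPP89, and at 1447 and 1554 in MeT-5A. The difference between the responses of sensitive and resistant lines was -0.56 for IER2 (95% interval -0.97 to -0.14, adjusted p = 0.0818) and 0.37 for JUN (adjusted p = 0.375), and no member passed, beside 9.37% of all genes. MeT-5A has a single pair, so the resistant lines are mainly MPP89.

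IER2 was the member that passed a test between washout and palbociclib. In the experiments with washout it went from 1172 with DMSO to 668 with palbociclib and 987 CP20M after washout in H2052, and from 1659 to 959 and 1581 in H2452. In H28 it went from 1557 to 976 and 1221, and in MSTO-211H from 1398 to 972 and 1187. The washout value lay between the other 2 in 4 of 4 lines. IER2 was 1.38-fold higher after washout than with palbociclib (log2 fold change 0.47 ± 0.09, SE, adjusted p = 0.0415 over 4 lines), which is under the fold threshold, and -0.22 below DMSO on the log2 scale (adjusted p = 0.137). Its adjusted p ran from 0.0387 to 1 over the 12 alternatives and passed in 3 of them. No member was called between washout and palbociclib by fold and FDR, beside 1.40% of all genes, and IER2 alone passed by FDR, beside 1.56%. Against DMSO no member was called, beside 5.76% of all genes, and none passed by FDR alone, beside 11.7%. Both washout comparisons share the same washout libraries.

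After washout JUN was above its DMSO level in all 4 lines. MSTO-211H had 4157 CP20M with DMSO, 6301 with palbociclib and 6168 after washout, and H28 had 2276, 4971 and 4163. H2452 went from 5791 to 6227 and then 8256, the highest JUN value of all 33 libraries. In H2052 the difference was small, with 3889, 3710 and 4119, or 0.08 above DMSO on the log2 scale. The mean difference from DMSO did not pass (log2 fold change 0.51 ± 0.17, SE, adjusted p = 0.0821), but was called with median-of-ratios (0.60, adjusted p = 0.0469) and upper-quartile scaling (0.72, adjusted p = 0.0130). JUND stayed below DMSO in H2052, at 1109 against 1639, and in MSTO-211H, at 944 against 1655, and above it in H2452 and H28. EGR1 in H28 had 910 CP20M with DMSO, 148 with palbociclib and 188 after washout. FOSL1 was above palbociclib after washout in 4 of 4 lines (log2 fold change 0.30, adjusted p = 0.692). FOS after washout was at 8, 18, 30 and 17 CP20M in H2052, H2452, H28 and MSTO-211H, below the 32 to 68 CP20M of the resistant lines.

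**Figure D4:**
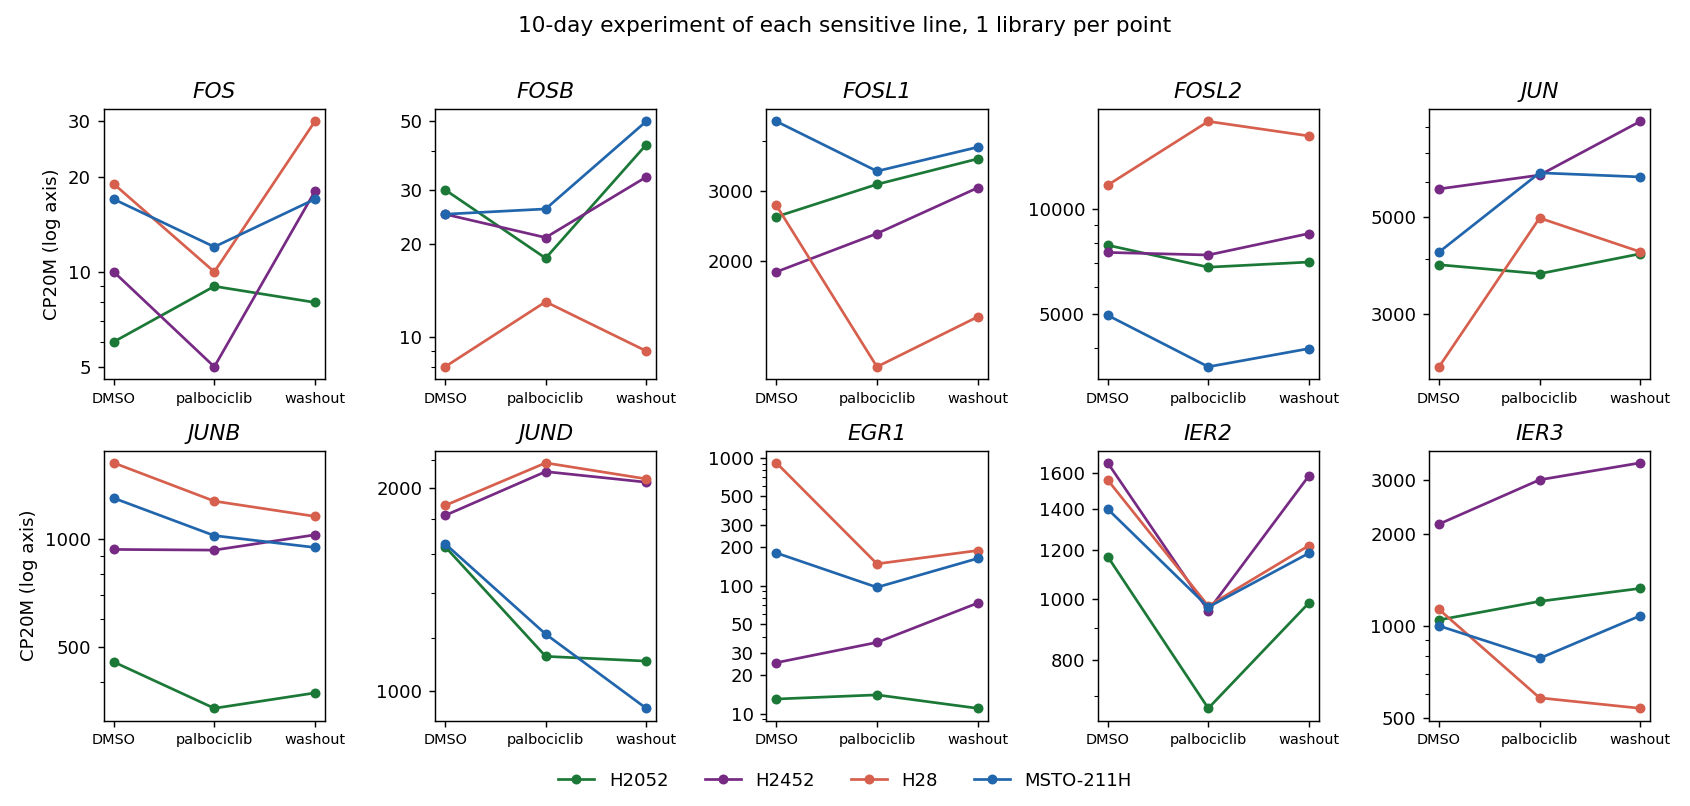
Level of each gene, in CP20M on a log axis, with DMSO, after 10 days of palbociclib and after 48 h of washout, in the experiment of each sensitive line that included washout, 1 library per point. IER2 is lowest with palbociclib in all 4 lines and stands at 987 to 1581 CP20M after washout.

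The members were weakly correlated within lines. After the mean of each line was subtracted, r over the 33 libraries lay between -0.53 (JUN and EGR1) and 0.62 (FOSL1 and IER3) in the 45 pairs of members, with a median of 0.16, and 34 pairs lay between -0.3 and 0.3. JUNB and EGR1 had r = 0.51. In the FOS family, JUN had r = 0.17 with FOSL2, 0.35 with FOSL1, 0.48 with FOSB and 0.16 with FOS. These points share lines and treatments and are a description. By the same measure, the tested genes most like each member were XDH (r = 0.89) and IMPDH1P10 (0.88) for JUN, SPHK1 (0.77) and RUNX1 (0.76) for FOSL1, TMEM63A (0.80) and ZNF783 (0.76) for FOSL2, UBXN7 (0.80) and ATP11B (0.78) for JUNB, and MIB1 (0.82) for JUND. For EGR1 they were ELF1 (0.80) and MTR (0.73), for IER3, after its antisense neighbour, RNF19B (0.74), and for IER2, after AC011446.2, CNRIP1 (0.88). FOS was nearest to USP11 (0.68) and AL109918.1 (0.64), and FOSB to HTD2 (0.71) and TMEM201 (0.70).

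**Figure D5:**
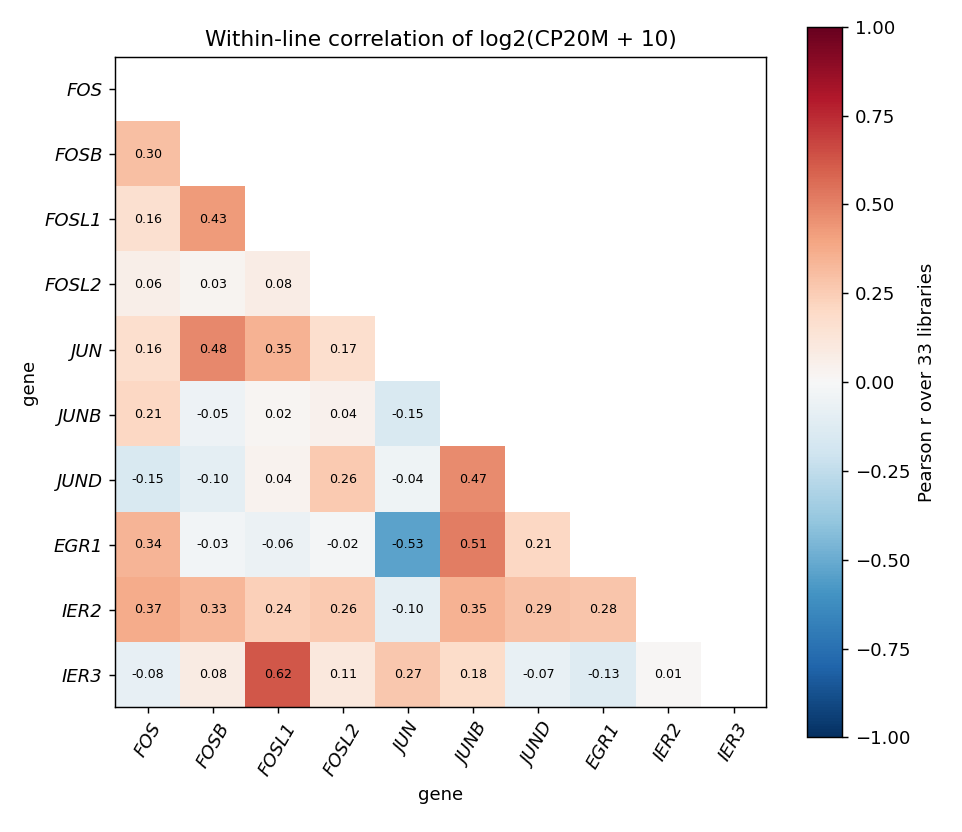
Pearson r between members over 33 libraries, on log2(CP20M + 10) after subtracting the mean of each line, with both axes listing the 10 genes. The strongest cells are FOSL1 with IER3, at 0.62, and JUN with EGR1, at -0.53.

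Other genes of the pathway were counted in 5 lists over the sensitive lines, where 15.0% of all tested genes were called and 48.3% passed by FDR alone. Of 12 other AP-1 family bZIP factors 11 were tested, 1 was called higher and 1 lower, with a median log2 fold change of -0.05. MAF, a leucine zipper factor that also binds with FOS and JUN, rose from a mean of 62.1 to 398 CP20M (log2 fold change 1.56 ± 0.39, SE, adjusted p = 0.00482, 9 of 11 pairs). BATF3, which pairs with JUN proteins, fell from 86.7 to 45.5 (log2 fold change -0.81 ± 0.19, SE, adjusted p = 0.00311, 10 of 11 pairs). Of 16 other immediate early genes 13 were tested, 2 were called higher and 1 lower, with a median of -0.14. CTGF, a matricellular protein and YAP target, rose from 885 to 2411 CP20M (log2 fold change 1.27 ± 0.20, SE, adjusted p = 0.000193). DUSP1, a phosphatase of MAP kinases, rose from 2359 to 3437 (log2 fold change 0.61, adjusted p = 0.00523), and IER5L fell in 11 of 11 pairs (log2 fold change -0.71, adjusted p = 0.00594). Of 11 upstream kinases and SRF cofactors none was called and 6 were lower by FDR alone, with a median of -0.18. Of 8 heat shock genes, a sign of stress or handling, none was called and 2 were lower by FDR alone, with a median of -0.07. The medians of these 4 lists changed sign with median-of-ratios scaling, to 0.15, 0.0026, 0.013 and 0.13, beside 0.06 for all genes. IER5L lost its call under that scaling and, like DUSP1, without replicate 1 of MSTO-211H. With the means of each line as units, MAF, BATF3 and IER5L were not called. None of the genes named from these lists changed direction in 26 alternatives.

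Among 14 known AP-1 target genes 11 were tested, 5 were called higher and 2 lower, beside 15.0% of all genes called in either direction, with a median log2 fold change of 0.56 beside -0.11 for all genes. IL6 rose from a mean of 41.9 to 147 CP20M in 11 of 11 pairs (log2 fold change 1.37 ± 0.27, SE, adjusted p = 0.00117). CCND1, which encodes cyclin D1, rose from 12613 to 26263 in 11 of 11 pairs (log2 fold change 1.19 ± 0.10, SE, adjusted p = 2.46e-06). CXCL8 (log2 fold change 1.24, adjusted p = 0.0147) and MMP1, a collagenase (1.24, adjusted p = 0.0175), rose in 10 and 9 of 11 pairs. The remaining called genes, named after their values were seen, were TIMP1, higher in 11 of 11 pairs (log2 fold change 1.10), and those that fell, HMGA1 in 11 of 11 pairs (log2 fold change -0.90, adjusted p = 0.00169) and IL11 in 10 of 11, from a mean of 28.8 to 6.45 CP20M (log2 fold change -1.10, adjusted p = 0.000224). After washout none of these genes was called against palbociclib, and 4 were called higher and 1 lower against DMSO, where 5.76% of all genes were called. The other lists had no called gene against palbociclib either, and against DMSO 3 other immediate early genes were called higher and 1 kinase or SRF cofactor lower. With the means of each line as units, HMGA1 and MMP1 were not called over the sensitive lines. The lists were chosen with earlier results of these data known, and their counts support no direction beyond the genes named.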

How the data were processed

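RNA-seq was analysed in 33 libraries of 6 cell lines. The authors prepared directional libraries, trimmed paired-end reads (Trimmomatic 0.36), mapped them with STAR 2.5.3 to GRCh38, counted reads per Ensembl gene with HTSeq 0.9.1 and scaled each library to 20000000. The deposited values are therefore a score, CP20M rounded up to whole numbers, and not counts of reads. The authors called genes with DESeq2, which was not used here for that reason. All columns add up to between 20007662 and 20021400.

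For the tests, log2(CP20M + 10) was fitted in R 4.3.3 using limma 3.58.1 (lmFit, eBayes with trend), over the genes that reached 100 CP20M in 1 or more libraries, with the experiment as a block and Benjamini-Hochberg adjustment over all 17803 genes. A fold change is on that scale and understates changes of low genes. Calls needed a fold change over 1.5 and an FDR under 0.05. F tests and the sensitive against resistant comparison used FDR alone. The washout fits used 12 libraries with the line as a block. Pairing follows the methods of the study, and deviations of same-numbered libraries correlated with r from 0.18 to 0.78 across genes. FOS and FOSB were compared with an exact permutation test over 2048 sign patterns.

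At most 4.33% of tested genes had equal values in 2 replicate libraries. P-values of a single line measure the spread between its cultures. In the fits pooled over lines, the pairs of a line count as separate units, and differences in response between lines add to the spread. With washout there was 1 library per line, so the 4 lines are the replicates. All 10 members are named, and from each of 5 lists up to 4 genes called over the sensitive lines, by size of the log2 fold change. Of the genes most like a member, the second for JUND is not reported here. The members and lists were chosen with earlier results of these data known. The functions were tested on simulated data. There the fit of H2052, with 2 pairs, recovered the signs of the changed genes but called none of them. Calls in H2052 therefore depend on how many genes change. Positions and exon lengths are from GENCODE 44, upstream sequences from RefSeq (8 of 10 members matched). Alternatives were pseudocounts 1 and 50, other filters and scalings, eBayes without trend, no replicate block, single durations, line means, and leaving out pairs or lines. Figures were drawn with matplotlib 3.10.9.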

Additional observations from a re-analysis of the deposited data

Results flagged for a closer look

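The response of FOSL2 differed among the 4 sensitive lines by a test of the difference itself (limma F test, adjusted p = 0.00215). It was higher with palbociclib in all 3 pairs of H28 and lower in all 3 pairs of MSTO-211H, and it passed in each of the 19 alternatives of that test.

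FOSB moved one way in every pair of MSTO-211H and the other way in every pair of H2052 and H2452. The mean log2 fold change of MSTO-211H was 0.96 above that of H2052 and 0.70 above that of H2452. At 10 to 44 CP20M these values rest on few reads, and the differences between these pairs of lines were not tested. The F test among the 4 lines without the filter on low values gave an adjusted p of 0.171.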

How the results depend on the processing

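No member called in 1 of the comparisons changed direction under any alternative of that comparison. Over the sensitive lines no member was called, and 1 (IER2) was called without the line H28 and 1 (IER2) with the 10-day pairs alone. FDR alone, added after seeing the data, gave 2 there, 2 in H2452, 3 in MSTO-211H and 1 for washout against palbociclib.

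The call of IER2 in H2052 went from 1 to 0 with no filter, with median-of-ratios scaling, with upper-quartile scaling and with eBayes without trend, and that of JUN in MSTO-211H from 1 to 0 with no filter, with median-of-ratios scaling and with eBayes without trend. The filter within the libraries of the fit gave 2 calls in H28 (FOSL1 and JUN) and 2 in the F test among the sensitive lines (FOSL2 and JUN). Median-of-ratios and upper-quartile scaling each gave 1 (JUN) for washout against DMSO. In the main fits 13.2% of all genes were called in H28, 37.1% among the sensitive lines and 5.76% for washout against DMSO. The shares of all genes under these alternatives are not given, so the member counts cannot be set against them. In H2452 the count stayed at 1 with both scalings, with IER3 called in place of IER2. The cause of these changes was not tested.

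Leaving out 1 pair gave 0 to 1 calls in H2452, where IER2 was lost without replicate 1 and without replicate 3. It gave 0 in MSTO-211H, where JUN was lost without any of the 3. It gave 0 to 1 for the sensitive against resistant difference (IER2 without replicates 1 or 2 of H28 or replicate 2 of MSTO-211H) and 1 to 4 among the sensitive lines, with FOSL2 in each. No gene at all was called with 2 pairs in H28, from 2354, or in MSTO-211H, from 2464. H2052 and MPP89 were not refitted with a pair left out, since the lone pair leaves no residual degrees of freedom.

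Without the replicate block the count of called members was the same in each comparison, but by FDR alone JUN over the sensitive lines did not pass (adjusted p = 0.0583, log2 fold change 0.35), nor did IER3 in H2452 (adjusted p = 0.293) or IER2 after washout (adjusted p = 1). No member was called there by fold and FDR for washout, against 0 with the block, and of all genes 0 were called in place of 250.

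Uncalled members near 0 over the sensitive lines changed sign. FOSL2 was at 0.10 with median-of-ratios scaling, 0.029 with upper-quartile scaling and 0.065 without the line MSTO-211H. JUNB was at 7.03e-05 with median-of-ratios scaling. IER3 was at -0.13 without the line H2452 and -0.15 with the 10-day pairs alone. Of the 407 values of single members compared, 376 kept their direction and their side of the thresholds. Of 647 further values of members with neither a fold over 1.5 nor an unadjusted p under 0.05, 55 changed sign.

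The number of all genes called went from 3142 to 0 in H2052 with eBayes without trend and to 284 with no filter, and from 2464 to 994 in MSTO-211H with no filter. The difference between sensitive and resistant lines had 1668 genes, and 883 with upper-quartile scaling. Of the genes named from the lists, MMP1 was called in 19 of 26 alternatives, BATF3 and IER5L in 21 and DUSP1 in 22. CXCL8 was called in 23, MAF and HMGA1 in 24, IL6 in 25, and CTGF, CCND1 and TIMP1 in 26. IL11 was called in 24 of the 25 alternatives that tested it, and the filter within the libraries of the fit left it out. FOS and FOSB are limited by depth.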
